A study of Mus musculus with 2 samples.

Results

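Reads on 9 genes of photoreceptors and of the cells that support them were compared between B6 mouse medullary thymic epithelium (mTEC) with high and with low surface MHC class II, the MHC-II high and MHC-II low fractions of the labels. The genes were listed by name, as retinal proteins of which several are targets in autoimmune uveitis, and each was represented by the RefSeq transcript that held most reads in both libraries together. All 9 were found among 23411 measured genes. They are the rod genes Gnat1, Pde6b and Sag, the disc gene Prph2, the cone opsin genes Opn1sw and Opn1mw, the matrix gene Rbp3, and the visual cycle genes Rlbp1 and Rpe65. Both fractions were sorted from thymus tissue pooled from 3 mice, and each gave 1 library of poly-A RNA, here called MHChi and MHClo. The labels give no age, treatment or altered gene for either fraction.

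Medullary epithelial cells transcribe many genes of peripheral tissues and display the products to developing T cells, so that T cells specific for them can be deleted or diverted to a regulatory fate. The nuclear protein Aire drives much of this transcription, and cells with high surface MHC class II are the fraction richest in it. The retina is a textbook case. Mice without Aire develop uveitis with an immune response to the interphotoreceptor retinoid-binding protein, the product of Rbp3, and arrestin, the product of Sag, is the classical S-antigen used to induce uveitis in animals.

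On genes, MHChi held 138368543 and MHClo 56077471 reads, and after TMM scaling (a correction of the library total for differences in composition) the totals were 146702907 and 52891644. Levels are given as CPM, counts set against these totals, or as length-scaled CPM, which is CPM per kilobase of transcript and is used wherever genes are compared with each other. With 1 library per group no difference has a replicate check and no p-value is given. Each ratio carries a 95% interval (exact Clopper-Pearson, computed from its reads) that covers counting error only. It takes every read as an independent draw, so it may be too narrow where reads are PCR copies. A gene is called higher or lower when this whole interval lies beyond 2-fold and its mean CPM is at least 1. In sorted bulk samples, fewer cells that express a gene and less RNA per cell cannot be told apart. Of the epithelial genes that check the cell type, Epcam was at 647 CPM in MHChi and 562 CPM in MHClo and Krt8 at 1634 and 1876 CPM, whereas the keratin genes Krt5 (800 and 5628 CPM) and Krt14 (306 and 2214 CPM) were much higher in MHClo. Genes of other cells also reached the level of Epcam or near it in MHClo, as Dcn of fibroblasts did at 513 CPM, Acta2 of mural cells at 444 CPM and the globin gene Hba-a1 at 1289 CPM. Aire was at 595 CPM in MHChi and 20.2 CPM in MHClo, and Fezf2, another regulator of tissue antigens, at 486 and 147 CPM.

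All 9 retinal genes had reads in both libraries, but at low levels. On the length-scaled scale their levels ran from 0.104 (Rpe65) to 3.27 (Rlbp1) in MHChi, where the median of all genes was 3.64. In MHClo they ran from 0.174 (Rpe65) to 1.10 (Sag), against a median of 2.96. Every member was thus below the median gene in both libraries. Of all genes, 4.92% had 0 reads in MHChi and 3.02% in MHClo, so that nearly every gene held some reads, also in the shallower library. Having reads therefore does not by itself set a member apart from other genes. Rbp3 had a higher level than 14.2% of all genes in MHChi and Rpe65 than 14.0%. Rlbp1 stood highest, above 48.4% of genes there and above 28.7% in MHClo.

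**Figure D1:**
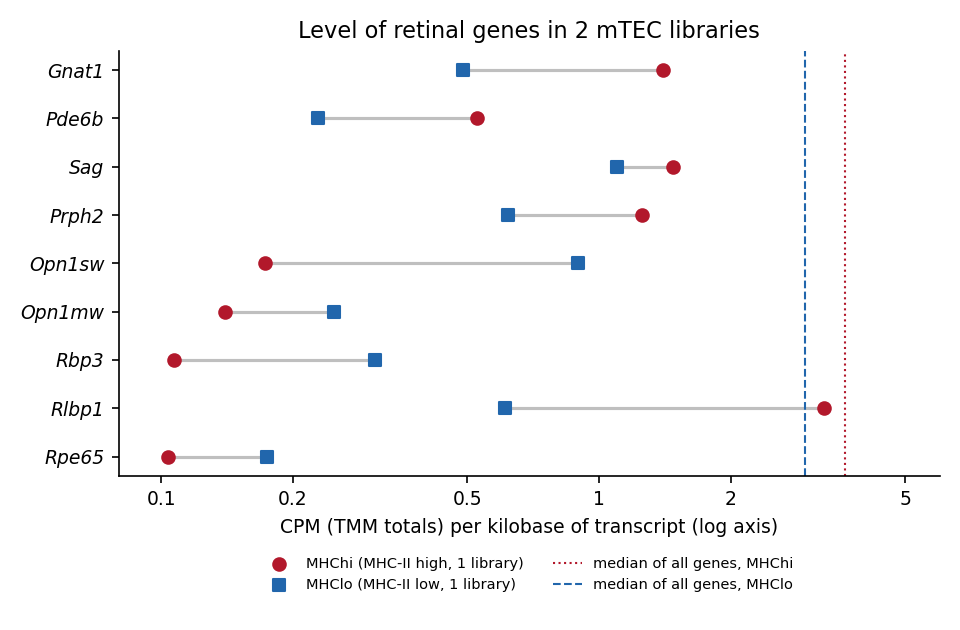
Length-scaled CPM (CPM on TMM totals per kilobase of transcript, log axis) of the 9 retinal genes in MHChi (circles) and MHClo (squares), 1 library each, with lines at the median of all genes in each library. Rlbp1 in MHChi, at 3.27, comes nearest to these medians of 3.64 and 2.96.

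The members differed in direction. Of 9 genes, 7 passed the minimum, and of these Rlbp1 and Gnat1 were higher in MHChi, Opn1sw and Rbp3 were lower, and Sag, Pde6b and Prph2 were called neither. Over all 17441 genes that passed it, 16.4% were called higher and 9.25% lower. The median log2 ratio of the 7 genes was 1.02, beside 0.11 for all genes past the minimum, and over all 9 members without a minimum it was 0.42. Pde6b exceeded the minimum through MHChi alone, and Opn1sw and Rbp3 through MHClo alone, so that these 3 had to differ in that direction to be counted. Without a minimum, the same 2 genes were beyond 2-fold on the higher side and the same 2 on the lower side, where 14.0% and 15.1% of all genes with reads were.

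**Figure D2:**
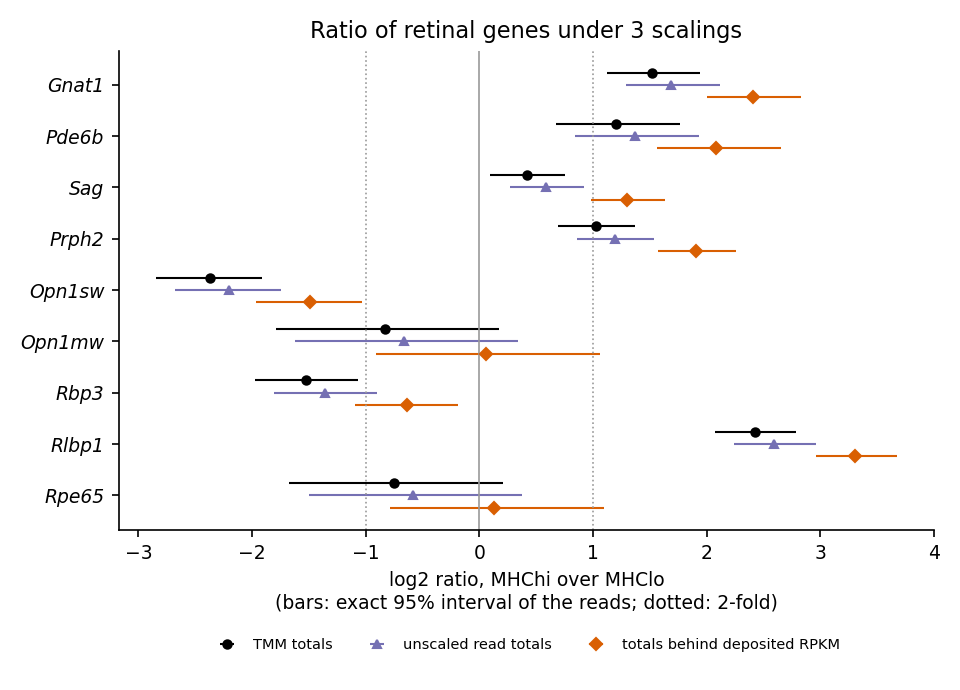
Log2 ratio of MHChi over MHClo for each retinal gene with its exact 95% interval of the reads, under TMM totals, unscaled read totals and the read totals behind the deposited RPKM. Rlbp1 and Gnat1 lie above 2-fold and Opn1sw below it under all 3, while Rpe65 and Opn1mw change sign with the RPKM totals.

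Promoter sequences are shown for the 2 genes at each end of this order that the RefSeq promoter table of build GRCm38.p6 holds, Rlbp1 and Pde6b on the higher side and Opn1sw and Rbp3 on the lower. Each window runs from 250 bases before to 50 bases after the annotated start, 5′ to 3′ on the gene's strand, and capitals mark CG dinucleotides and matches to TAATCC, the core bound by the photoreceptor factor CRX, on either strand.
Rlbp1, chr7:79386978-79387277 (- strand): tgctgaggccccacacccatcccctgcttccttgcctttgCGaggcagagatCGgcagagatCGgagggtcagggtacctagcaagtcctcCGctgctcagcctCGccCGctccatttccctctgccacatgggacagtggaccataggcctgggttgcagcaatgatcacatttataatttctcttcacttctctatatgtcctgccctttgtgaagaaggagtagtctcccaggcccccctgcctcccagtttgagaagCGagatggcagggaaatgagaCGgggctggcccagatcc
Pde6b, chr5:108388123-108388422 (+ strand): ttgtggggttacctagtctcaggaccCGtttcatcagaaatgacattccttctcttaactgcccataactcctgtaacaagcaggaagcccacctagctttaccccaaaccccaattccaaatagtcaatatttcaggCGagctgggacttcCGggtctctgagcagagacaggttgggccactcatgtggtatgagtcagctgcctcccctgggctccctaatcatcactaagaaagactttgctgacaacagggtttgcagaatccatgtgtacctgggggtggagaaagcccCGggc
Opn1sw, chr6:29380464-29380763 (- strand): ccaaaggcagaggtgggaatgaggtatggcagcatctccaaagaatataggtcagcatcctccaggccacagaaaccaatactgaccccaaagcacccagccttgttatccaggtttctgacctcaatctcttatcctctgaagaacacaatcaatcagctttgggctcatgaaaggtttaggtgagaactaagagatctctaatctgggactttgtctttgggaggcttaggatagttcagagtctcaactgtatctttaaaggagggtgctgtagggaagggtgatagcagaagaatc
Rbp3, chr14:33953753-33954052 (+ strand): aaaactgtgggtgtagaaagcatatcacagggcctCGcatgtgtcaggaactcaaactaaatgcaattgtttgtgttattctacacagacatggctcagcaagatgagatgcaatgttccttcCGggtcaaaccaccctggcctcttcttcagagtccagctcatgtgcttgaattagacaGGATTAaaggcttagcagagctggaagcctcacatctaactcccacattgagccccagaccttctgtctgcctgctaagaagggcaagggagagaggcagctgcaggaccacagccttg
The Rlbp1 window holds 8 CG dinucleotides and that of Pde6b 4, against 2 for Rbp3 and 0 for Opn1sw. The median over 32851 promoter windows was 7. Over the 8 members in the table, Prph2 with 7 was the only other one above 4, and Opn1mw had 0. TAATCC was found in 3 of these 8, Rbp3, Sag and Rpe65, and in 7.06% of all windows. TGCTGA, the core of the site of the rod factor NRL, was found in 5 of 8 and in 19.5% of all windows, and TATAAA in 3 of 8 and in 13.6%. Each motif was searched on both strands and counted by itself, so that matches of different motifs may overlap, and a match describes the letters only.

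In rods, the light-activated visual pigment switches on the G protein transducin, transducin switches on a phosphodiesterase that breaks down cyclic GMP, and arrestin ends the signal. Gnat1, the alpha subunit of rod transducin, had 454 reads (3.09 CPM) in MHChi and 57 reads (1.08 CPM) in MHClo. It was thus 2.87-fold higher in MHChi (interval 2.18 to 3.85). Pde6b, the beta subunit of the rod phosphodiesterase and the gene mutated in the rd1 mouse, had 217 reads (1.48 CPM) against 34 reads (0.643 CPM). Its ratio of 2.30 (1.60 to 3.41) pointed the same way, but the interval reached below 2-fold.

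Sag, the rod arrestin, had 371 reads (2.53 CPM) in MHChi and 100 reads (1.89 CPM) in MHClo. Its ratio was 1.34, with an interval (1.07 to 1.69) above equality and under 2-fold. On the length-scaled scale Sag was the highest of the members in MHClo, at 1.10, and in MHChi, at 1.47, it came second to Rlbp1. The 3 rod genes can be compared with each other without any scaling, as the ratio of their ratios uses only reads of the same 2 libraries. Gnat1 exceeded Sag by 2.15 times in this measure (1.49 to 3.11) and Pde6b exceeded Sag by 1.72 times (1.11 to 2.71). Gnat1 and Pde6b did not differ beyond counting error, at 1.25 times (0.767 to 2.01).

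Prph2, or peripherin-2, is a tetraspanin that shapes the rims of the outer segment discs. It had 485 reads (3.31 CPM) in MHChi and 86 reads (1.63 CPM) in MHClo, a ratio of 2.03 (1.61 to 2.59). The value lies at the 2-fold limit and the interval on both sides of it. Rom1, its partner in the disc rim and picked after its value was seen, had a ratio of 1.80 (1.62 to 1.99). The 2 partners did not differ beyond counting error in ratio, at 1.13 times (0.878 to 1.47), although Rom1 was at a length-scaled level of 10.1 in MHChi and Prph2 at 1.26.

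Cones use opsins tuned to different wavelengths, and in the mouse Opn1sw encodes the short-wave and Opn1mw the middle-wave pigment. Opn1sw had 61 reads (0.416 CPM) in MHChi and 114 reads (2.16 CPM) in MHClo, although MHClo is the shallower of the 2. It was 5.18-fold higher in MHClo (3.77 to 7.19), the largest difference in that direction among the members. Opn1mw had 25 reads (0.170 CPM) against 16 reads (0.303 CPM). It was under the minimum, and its ratio of 0.563 (0.289 to 1.13) included equality. The ratio of Opn1mw exceeded that of Opn1sw by 2.92 times (1.37 to 6.31), so the 2 opsins differed beyond counting error. Beside the Opn1sw result stand the exons of Calu, which overlap those of Opn1sw on the opposite strand in GENCODE vM21. Calu, a calcium-binding protein of the secretory pathway, was at 141 CPM in MHChi and 214 CPM in MHClo, and the kit did not keep strand. Which of the reads on Opn1sw come from Calu was not tested. The ratio of Calu was 3.41 times that of Opn1sw (2.47 to 4.74).

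Rbp3 encodes the interphotoreceptor retinoid-binding protein, which carries retinoids between photoreceptors and the pigment epithelium and is the member best known as a target in Aire-deficient mice. It had 83 reads (0.566 CPM) in MHChi and 86 reads (1.63 CPM) in MHClo, on a transcript of 5276 bases. It was 2.87-fold higher in MHClo (2.10 to 3.93), at low levels in both libraries. Its length-scaled level was above that of 14.2% of all genes in MHChi and 17.4% in MHClo. Aire itself differed in the opposite direction, and the ratio of Aire was 84.6 times that of Rbp3 (61.4 to 117). With unscaled read totals Rbp3 was 2.56-fold higher in MHClo (1.87 to 3.50) and with the RPKM read totals 1.56-fold (1.14 to 2.13), so that neither interval lay wholly beyond 2-fold. The ratio of Prph2 exceeded that of Rbp3 by 5.84 times (3.93 to 8.68), which no scaling can change. Zfp488, the gene after Rbp3, had a log2 ratio of -0.66 and Gdf2, the gene before it, one of 0.42.

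In the visual cycle, the retinal chromophore spent by light is regenerated in the pigment epithelium, where Rpe65 is the isomerase, and Rlbp1 (CRALBP) binds the product there and in Müller glia. Rlbp1 had 1056 reads (7.20 CPM) in MHChi and 71 reads (1.34 CPM) in MHClo. It was 5.36-fold higher in MHChi (4.21 to 6.92), the largest difference in that direction among the members. Its 2 listed transcripts share reads, and the other, with 1046 against 69 reads, gave a ratio of 5.47. Rpe65 had 28 reads (0.191 CPM) against 17 reads (0.321 CPM), was under the minimum, and had a ratio of 0.594 (0.314 to 1.16) that included equality. The ratio of Rlbp1 was 9.03 times that of Rpe65 (4.40 to 18.0). The 2 visual cycle genes thus parted beyond counting error. Aire differed more than Rlbp1, with a ratio 5.49 times as large (4.22 to 7.05). Rhox2g, an unrelated gene, had the same 2 read counts as Rpe65.

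The rest of the pathway was followed in 6 lists of 82 further retinal genes, of which 65 passed the minimum. In MHChi 15 of these 65 were higher (23.1%) and 3 lower (4.62%), beside 16.4% and 9.25% of all genes. Of those called, Rcvrn, Pde6h, Aipl1, Rgr, Dct, Nrl and Pou4f1 passed the minimum through MHChi alone and Impg1 through MHClo alone. These genes had to differ in that direction to be counted. Without a minimum, 17 of all 82 were higher (20.7%) and 4 lower (4.88%), beside 14.0% and 15.1% of all genes with reads. On the read totals behind the deposited RPKM, 27 of 42 were higher (64.3%) and 1 lower (2.38%), beside 45.2% and 2.94% of all genes. On the TMM totals the median log2 ratio of the 65 was 0.46.

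Of 16 rod phototransduction genes, 10 passed the minimum, 3 were higher in MHChi, 0 were lower, and the median log2 ratio was 0.74. Rcvrn encodes recoverin, a calcium sensor of photoreceptors that is itself a known retinal autoantigen. It was 8.60-fold higher (6.07 to 12.6), with 787 against 33 reads, and exceeded the minimum through MHChi alone. Its ratio was 2.99 times that of Gnat1 (1.88 to 4.82). Grk1, a kinase that helps end the light response, was 2.97-fold higher (2.56 to 3.46). The third was Slc24a1, the rod sodium-calcium exchanger, 2.59-fold higher and picked after its value was seen. Gnb1, the transducin beta subunit that many cell types use, was at 312 and 332 CPM, and Rgs9, which speeds the shut-off of transducin, had a log2 ratio of 0.52.

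Of 7 cone phototransduction genes, 5 passed the minimum, 1 was higher and 0 were lower, with a median log2 ratio of 0.21. Pde6h, the inhibitory subunit of the cone phosphodiesterase, was 21.1-fold higher in MHChi (11.4 to 44.3), on 586 against 10 reads, and exceeded the minimum through that library alone. Gngt2, the gamma subunit of cone transducin, was 2.27-fold higher in MHClo (1.81 to 2.85), and the channel gene Cnga3 had a log2 ratio of 0.21. Neither was called. Cone genes thus held the largest ratio among the phototransduction genes named here and, in Opn1sw, a gene called lower in MHChi.

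Of 14 genes of the outer segment and its cilium, 12 passed the minimum, and of these 2 were higher in MHChi and 2 in MHClo. The median log2 ratio was 0.29. Aipl1, the chaperone that folds the photoreceptor phosphodiesterase, was 20.3-fold higher in MHChi (14.6 to 29.1), on 2029 against 36 reads. Abca4, the retinoid transporter of the disc rim, was 3.24-fold higher (2.83 to 3.72). Unc119, a carrier of lipidated proteins that many tissues express, was 3.91-fold higher in MHClo (3.66 to 4.18), and the matrix gene Impg1 3.74-fold (2.71 to 5.18). Impg1, like Rbp3 a gene of the matrix between photoreceptors, passed the minimum through MHClo alone, and Aipl1 through MHChi alone. Impg2, another matrix gene of the list, had a ratio of 0.770 (0.616 to 0.968) and was called neither. Abca4, Impg1 and Impg2 were picked after their values were seen. The photoreceptor cadherin gene Cdhr1 was at 245 and 164 CPM and Prom1 had a log2 ratio of 0.43.

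Of 17 genes of the visual cycle and pigment epithelium, 14 passed the minimum, 4 were higher and 1 was lower, with a median log2 ratio of 0.36. Lrat, which makes the retinyl esters that Rpe65 uses, was 9.62-fold higher in MHChi (8.22 to 11.3), and its ratio was 1.79 times that of Rlbp1 (1.33 to 2.41). Stra6, the receptor for retinol uptake, was 7.76-fold higher (7.16 to 8.41), at 92.7 against 11.9 CPM. The opsin-like gene Rgr was 5.17-fold and the melanin enzyme gene Dct 3.81-fold higher, both picked after their values were seen and both past the minimum through MHChi alone. The dehydrogenase gene Rdh10 was near equal, at 47.9 and 41.9 CPM. Among the carriers and enzymes of retinoids, Rlbp1, Lrat and Stra6 were therefore higher in MHChi, Rbp3 was higher in MHClo, and Rpe65 was not called.

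Of 15 retinal transcription factor genes, 13 passed the minimum, 2 were higher and 0 were lower, with a median log2 ratio of 0.053. Nrl, which sets rod fate, was 24.4-fold higher in MHChi (16.7 to 37.1), on 1827 against 27 reads, and exceeded the minimum through that library alone. Thrb, a thyroid hormone receptor gene that in cones acts on opsin choice, was 2.90-fold higher (2.66 to 3.17). Crx, the photoreceptor homeobox gene, was picked after its value was seen and had a ratio of 2.13 (1.58 to 2.93). The ratio of Nrl was 11.4 times that of Crx (6.90 to 19.2). Of 13 genes of inner retinal and ganglion cells, 11 passed the minimum, 3 were higher and 0 were lower, with a median log2 ratio of 0.66. Tfap2b, a transcription factor gene of amacrine cells, was 19.7-fold higher (17.9 to 21.7), the ganglion cell factor gene Pou4f1 8.50-fold (6.21 to 11.9) and Gabrr1, picked after its value was seen, 2.93-fold. Pou4f1 exceeded the minimum through MHChi alone. Sncg, a synuclein gene of ganglion cells, had a ratio of 2.03 (1.95 to 2.12).

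**Figure D3:**
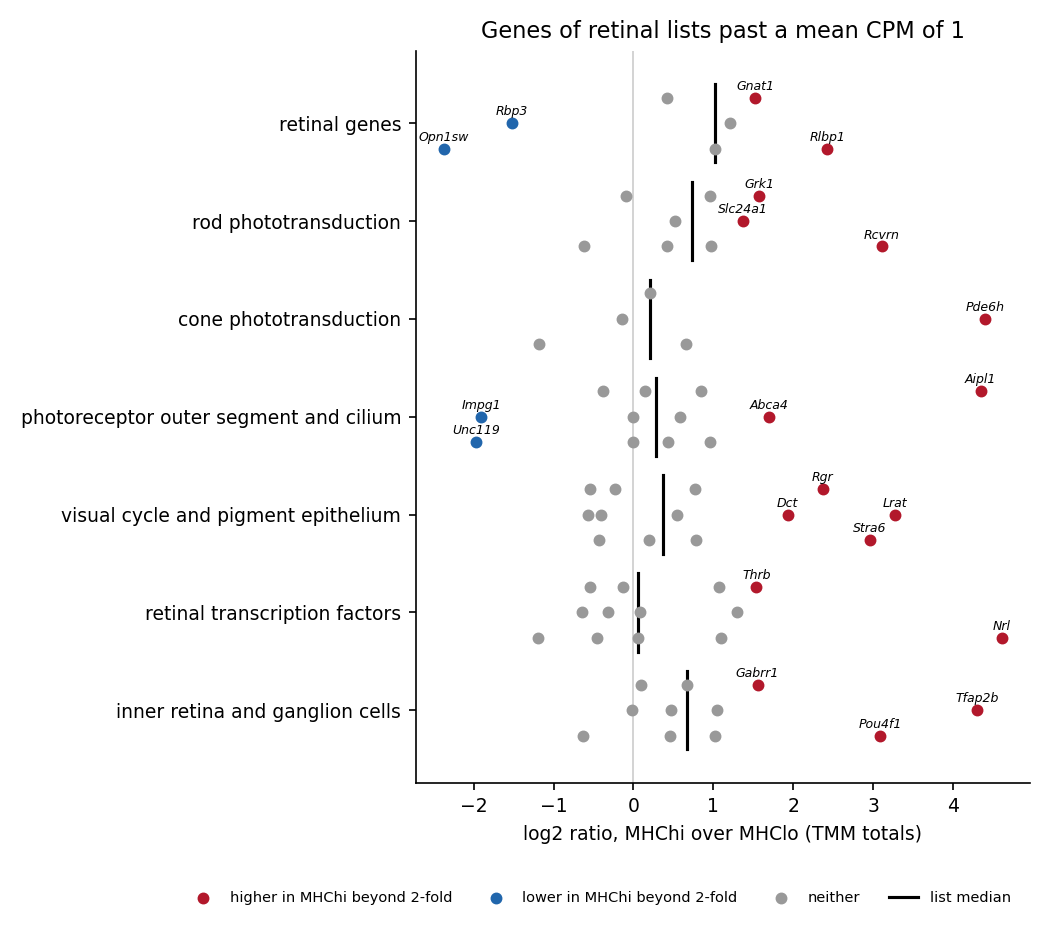
Log2 ratio of MHChi over MHClo (TMM totals) for the genes past a mean CPM of 1 in the retinal genes and 6 further retinal lists, with called genes coloured and named and black bars at list medians, leaving out single genes that are not reported. In each of the 6 lists most genes are called neither, and Nrl, Pde6h, Aipl1 and Tfap2b lie farthest to the right, beyond a log2 ratio of 4.

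Markers of other cells differed between the libraries as well. Of 8 endothelial genes, 8 were lower in MHChi, with summed levels of 84.4 against 574 CPM, as were 6 of 8 fibroblast and mural genes (249 against 1488 CPM), 2 of 4 erythroid genes (62.8 against 2055 CPM) and 6 of 8 genes of tuft-like cells (482 against 1581 CPM). Of 8 dendritic cell and macrophage genes, 5 were higher (424 against 86.2 CPM), with most of both sums from Lyz2 (377 and 71.1 CPM). Of 6 T cell genes, 1 was higher and 1 lower (54.5 against 71.2 CPM). Of 5 pigment cell genes, 4 of them also in the pigment epithelium list, 3 passed the minimum and 1, Dct, was higher (14.1 against 8.47 CPM). Of 9 medullary epithelial genes, 5 were higher and 2 lower (4863 against 10540 CPM), and Krt5 and Krt14, the 2 lower ones, held most of the sum in MHClo. No gene of these lists was at 0 in either library. The called endothelial, fibroblast, erythroid and tuft-like genes differed in the direction of Opn1sw and Rbp3, and the called dendritic cell and macrophage genes in that of Rlbp1 and Gnat1. Their part in these results was not tested.

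The genes beside each member in the RefSeq gene order gave a local comparison. Slc38a3, a glutamine transporter gene next to Gnat1, was 9.01-fold higher in MHChi (7.13 to 11.6), 3.14 times the ratio of Gnat1 (2.14 to 4.57), whereas Sema3f on the other side was at 89.8 and 159 CPM. Beside Rlbp1, the genes Abhd2 and Fanci had log2 ratios of -0.29 and 0.39, far from its 2.42. Beside Prph2, Tbcc and Ubr2 were at -0.46 and 0.03. Beside Pde6b, Pigg and Atp5k were at 0.74 and -0.69, and beside Sag, Dgkd was at 0.24. On both sides of Opn1sw the genes were higher in MHClo but less so than Opn1sw, Calu at -0.60 and Ccdc136 at -1.15. Beside Rpe65, Depdc1a was at 2.73 and Wls at -0.69. Except for Slc38a3 and Depdc1a, every neighbour named here had a log2 ratio between -1.15 and 0.74.

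**Figure D4:**
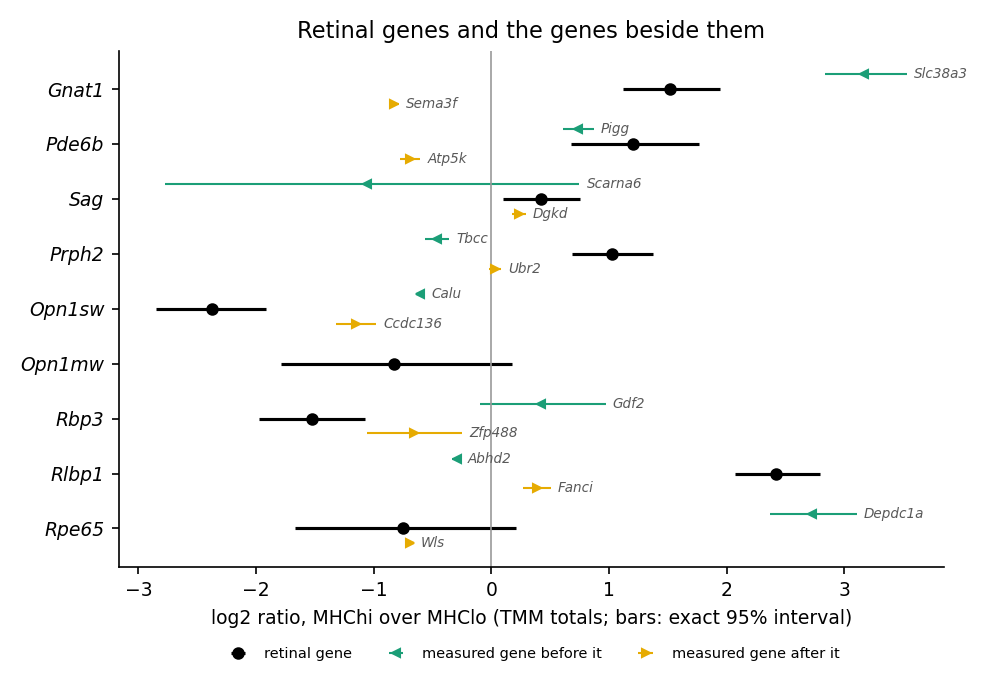
Log2 ratio of MHChi over MHClo (TMM totals) with exact 95% intervals for each retinal gene and for the measured genes before and after it in the RefSeq gene order of GRCm38.p6. No neighbour of Opn1mw is drawn. The intervals of Rlbp1, Prph2, Opn1sw, Rbp3 and Gnat1 overlap that of neither neighbour, and Gnat1 lies between its neighbours.

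The sign of the 2 least covered members depended on the scaling. The RPKM values deposited by the authors rest on read totals of 213854095 and 142330178, of which reads on genes were 64.7% in MHChi and 39.4% in MHClo. These totals shift every log2 ratio upward by 0.88. On them Rlbp1 was 9.90-fold, Gnat1 5.30-fold, Pde6b 4.25-fold, Prph2 3.75-fold and Sag 2.47-fold higher in MHChi, and Opn1sw was still 2.81-fold higher in MHClo (2.04 to 3.90). Rpe65 and Opn1mw then had ratios of 1.10 and 1.04, each with an interval that included equality. On those totals 45.2% of all genes past the minimum were called higher and 2.94% lower. Among the members, the direction of Rlbp1, Gnat1, Pde6b, Prph2, Sag, Opn1sw and Rbp3 was the same under each of the 5 scalings tried.

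By the pair of CPM values, the genes nearest to Rlbp1 were Pik3r6 (1040 against 71 reads) and Ntsr1 (1052 against 69), at distances of 0.022 and 0.0416 on the log2 scale, and 10 genes lay within 0.1. Nearest to Prph2 were Slitrk2 (486 against 83 reads) and Scpep1os (502 against 87), with 12 genes within 0.1. With 2 libraries such likeness describes only a level and a ratio.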

How the data were processed

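Per the labels, RNA of MHC-II high and MHC-II low mTEC was sequenced as 1 library each. Per the submitters' processing notes the build was mm9 and CASAVA, Bowtie 1.0.0 and bedtools were used; settings and annotation are not given in the sources used here. Read counts and RPKM values per RefSeq transcript were deposited by the authors, per the file headers. Every deposited RPKM equalled the count over length and 1 read total per library, within 4.41e-08.

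Stray lines (18 and 36) were left out, copies of a transcript (840 lines in the high table) were summed, and 29800 accessions present in both tables with equal length were kept. Symbols came from RefSeq (29233) and GENCODE vM21 (173), both of GRCm38, so no coordinates of measured transcripts are given. TMM totals over all genes came from edgeR 4.0.16 in R 4.3.3, and intervals from scipy 1.17.1. The interval and call were run on simulated counts that carried counting error only, so that run cannot speak to spread between libraries. The reads carry no molecular identifiers, so PCR copies could not be told apart. Intervals treat each read as an independent draw and may be too narrow even for counting error.

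Named were all 9 members, their neighbours in the gene order, Aire and Fezf2, the genes nearest in CPM, and up to 4 genes per list, 2 by reads and 2 by size of the ratio; others are marked where they stand. Some genes of the lists and 1 neighbour enter counts and medians but are not reported here. Of the marker lists, only summed levels, counts the genes that check the cell type and a few genes with large shares of a sum, picked after their values were seen, are given. Members and lists were chosen with earlier results of these data known. Alternatives were other scalings, transcripts, fold limits, minimums and interval levels.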

Additional observations from a re-analysis of the deposited data

How the results depend on the processing

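The 2 members called higher became 4 with a 1.5-fold limit, beside 26.1% of all genes, and 1 with a 4-fold limit (5.72%). With the RPKM read totals they became 3 (45.2%). No member passed a minimum of 5 CPM, so 0 were called and no median could be given there. The 2 called lower stayed 2 with a 1.5-fold limit (17.1% of all genes). They became 1 with unscaled read totals (7.35%) and with a 99% interval (8.72%). With a 4-fold limit (2.87%) or a minimum of 5 CPM they became 0. With the RPKM read totals (2.94%) the count was also 0. There the interval of Rbp3 was not wholly beyond 2-fold, and Opn1sw, whose interval was, fell under the minimum. The median log2 ratio of 1.02 was 1.19 with unscaled read totals and 0.42 without a minimum. It was 0.91 with TMM over genes past the minimum, an alternative chosen after seeing the data. With RPKM read totals it was 2.16, but over Rlbp1, Gnat1, Prph2 and Sag only. Opn1sw, Rbp3 and Pde6b were under the minimum there, so this value reflects a changed set of genes as well as the scaling. The log2 ratios of Opn1mw and Rpe65 turned to 0.0565 and 0.13 with the RPKM read totals. Of the other retinal genes, the 15 called higher became 27 with RPKM read totals (64.3%, beside 45.2% of all genes). They became 23 at 1.5-fold (35.4% beside 26.1%), 8 at 4-fold (12.3% beside 5.72%) and 9 with a minimum of 5 CPM (34.6% beside 14.2%). The 3 called lower became 1 with RPKM read totals (2.38% beside 2.94%). They became 5 at 1.5-fold (7.69% beside 17.1%) and 1 at 4-fold (1.54% beside 2.87%). No paired analysis was possible because each group held 1 library, and no library could be left out. Depth limits Rpe65 and Opn1mw most, whose intervals span equality.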
